A study of Mus musculus with 12 samples.

Results

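Fibro/adipogenic progenitors (FAPs), mesenchymal cells found between muscle fibres, carry the receptor PDGFRα and can become fibroblasts and adipocytes. Here FAPs treated with an antisense morpholino oligonucleotide (AMO) directed at the intronic polyadenylation site of Pdgfra (pA AMO) were compared with FAPs treated with an AMO directed at a 5' splice site of the same gene (5'ss AMO). The comparison used 8 of the 12 arrays of the study, chosen by their titles, with 4 arrays for each AMO. Of each 4, 2 had PDGF-AA, at a dose the labels write as 50 uM, and 2 had none. PDGF-AA binds and activates PDGFRα. The 4 arrays with control AMO are given beside them as a description only. All cells, those with control AMO included, came from uninjured hindlimb muscle of male C57/Bl6 mice aged 8 to 12 weeks, and each replicate pooled the cells of 2 mice. After 2.5 days of growth the cells were given 10 µM AMO for 48 hours in medium with 10% horse serum. They were then given 10 µM AMO again in Opti-Mem, with or without PDGF-AA, for a further 48 hours. The labels also list 10% fetal bovine serum for all arrays.

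A transcript with a polyadenylation signal inside an intron has a choice of fates. The intron can be spliced out, which gives the full-length messenger RNA, or the transcript can be cut and polyadenylated within the intron, which gives a shorter one whose protein may lack the parts encoded further on. An oligonucleotide over the intronic polyadenylation site is meant to favour the full-length form, and one over the 5' splice site the shorter form. PDGFRα signalling in FAPs is known for its part in muscle fibrosis.

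Each array gave a log2 expression value for 35556 transcript clusters, of which the 21789 with exactly 1 gene symbol were tested. The medians of the 8 arrays lay between 6.04 and 6.19, and the correlations between arrays between 0.9922 and 0.9975. FAP genes were bright, with Pdgfra at a mean log2 of 12.83, Vim at 13.34, Dcn at 13.33 and Cd34 at 11.64. Gene lists of other cells had lower medians, with leukocytes at 5.29, endothelium at 5.99 and Schwann cells at 6.09. Smooth muscle and pericytes stood at 6.87, muscle at 6.96 and tendon at 7.05, against 11.02 for FAP and fibroblast genes. Single genes varied, with Ptprc of leukocytes at 5.01, Pecam1 of endothelium at 5.52 and Pax7 of muscle stem cells at 6.50. Brighter ones were the muscle fibre genes Actc1 and Myh3 at 8.56 and 8.25 and Comp of tendon at 9.615. Tek of endothelium stood at 8.51 on its lowest 5'ss array. Probes are not calibrated against each other, so these levels compare only roughly. Every change below is pA AMO minus 5'ss AMO on the log2 scale with its standard error (SE), from limma with the replicate number as a block, averaged over both PDGF-AA conditions unless one is named. Adjusted p is Benjamini-Hochberg over all 21789 clusters, with a threshold of 0.05. The values of 4 arrays are given in the order with PDGF-AA replicates 1 and 2, without PDGF-AA replicates 1 and 2, and values of 4 matched pairs likewise. A matched pair is a pA array and a 5'ss array of the same condition and replicate number. Each of the 8 arrays was left out in turn. Where this moved an averaged change by over 1.5 times, the value farthest from it in ratio is given with the array left out. Exceptions, for which no such value is given, are genes shown only by condition or by pair, such as Masp1 and Idi1. The clusters of Hmcn1 and Vwa3b, and neighbours of Kng2 other than Kng1 and Adipoq, are also exceptions. The changes of these exceptions are not shown to be stable.

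Pdgfra, the gene at which both AMOs are directed, was measured by a cluster that gives 1 value for the gene and does not separate the full-length from the intronic transcript. It stood at 12.75, 12.81, 12.72 and 12.80 on pA AMO arrays, against 12.89, 12.84, 12.90 and 12.92 on 5'ss AMO arrays. The groups did not overlap, although the change was small, at -0.12 (SE 0.051, adjusted p = 0.583). The control arrays lay at 12.75 to 12.78, within the range of the pA arrays. In these bulk cultures fewer cells with a gene and less RNA of it per cell cannot be told apart. Of the other receptor genes, Pdgfrb was at 0.17 (SE 0.079) and the receptor-like Pdgfrl at -0.22 (SE 0.12). The ligand genes were at -0.15 (SE 0.057) for Pdgfa, 0.06 (SE 0.081) for Pdgfb, -0.17 (SE 0.073) for Pdgfc and 0.07 (SE 0.092) for Pdgfd. With single arrays left out, Pdgfrb ran from 0.086 (without the pA array with PDGF-AA replicate 1) to 0.24, and Pdgfrl from -0.33 (without the 5'ss array with PDGF-AA replicate 1) to -0.088 (without replicate 2 of that group). Without the pA array with PDGF-AA replicate 1, Pdgfc came to -0.10 and Pdgfd to -0.021, and without the pA array without PDGF-AA replicate 1 Pdgfb came to 3e-04. Of the 7 genes of the family 0 passed the test, and Pdgfra was the 1 whose groups did not overlap, against 2.65% of all clusters (577 of 21789).

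The kininogen gene Kng2 was the only one of the 21789 clusters that passed the test between the AMOs, which is 0.00459% of them. Kininogens are the precursors of kinins, peptides that dilate vessels and make them leaky, and they also inhibit cysteine proteases. Kng2 stood at 9.33, 9.89, 9.46 and 9.87 on pA AMO arrays, against 8.37, 8.61, 8.22 and 8.66 on 5'ss AMO arrays. Every pA array lay above every 5'ss array. On control AMO arrays it stood at 9.39, 9.85, 9.73 and 9.93, also above every 5'ss array. On pA arrays Kng2 was 1.17 higher than on 5'ss arrays (SE 0.064, 95% interval 1.02 to 1.32, adjusted p = 0.00224, limma), which is 2.25-fold. The means were 9.64 on pA, 8.47 on 5'ss and 9.73 on control arrays, so that the 5'ss arrays were the low ones and the pA mean lay below the control mean by less than the spread among arrays. With pA AMO Kng2 was higher in 4 of 4 matched pairs, by 0.96, 1.28, 1.24 and 1.21. With PDGF-AA the difference was 1.12 (SE 0.092, adjusted p = 0.133) and without PDGF-AA 1.22 (SE 0.092, adjusted p = 0.0729), and the interaction of AMO and dose was -0.10 (SE 0.13, adjusted p = 0.949). With no replicate block the change was the same and did not pass (adjusted p = 0.258), and in all 4 groups compared the replicate 2 array lay above the replicate 1 array.

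Kng1, a close paralog whose probes may share signal with Kng2, stood at 6.48, 6.67, 6.83 and 7.23 on pA arrays, against 6.80, 7.11, 6.79 and 7.19 on 5'ss arrays. Its groups overlapped, and the change was -0.17 (SE 0.093, adjusted p = 0.652). In a list of 12 genes of the kallikrein-kinin system, chosen after the values of Kng2 were seen, 8 lay above 0 with a median of 0.05, and Kng2 was the 1 that passed. The angiotensin receptor gene Agtr1a was at 0.24 (SE 0.074) and the angiotensin precursor gene Agt at -0.28 (SE 0.13), and leaving out 1 array took Agt to -0.16 (the pA array with PDGF-AA replicate 1), and Kng1 to -0.085 (the pA array with PDGF-AA replicate 2). Of the 15 other clusters tested within about 500 kb of Kng2 on chromosome 16, 0 passed and all overlapped between the AMOs. Over all clusters 0.00459% passed and 2.65% did not overlap, so that these counts are no result about the neighbours. Among the 15, the largest change was that of Adipoq, at -0.96 (SE 0.61), described below. The secreted glycoprotein genes Ahsg and Fetub, neighbours of Kng2, were at -0.47 (SE 0.11) and 0.25 (SE 0.10), and Eif4a2 at -0.17 (SE 0.053).

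**Figure D1:**
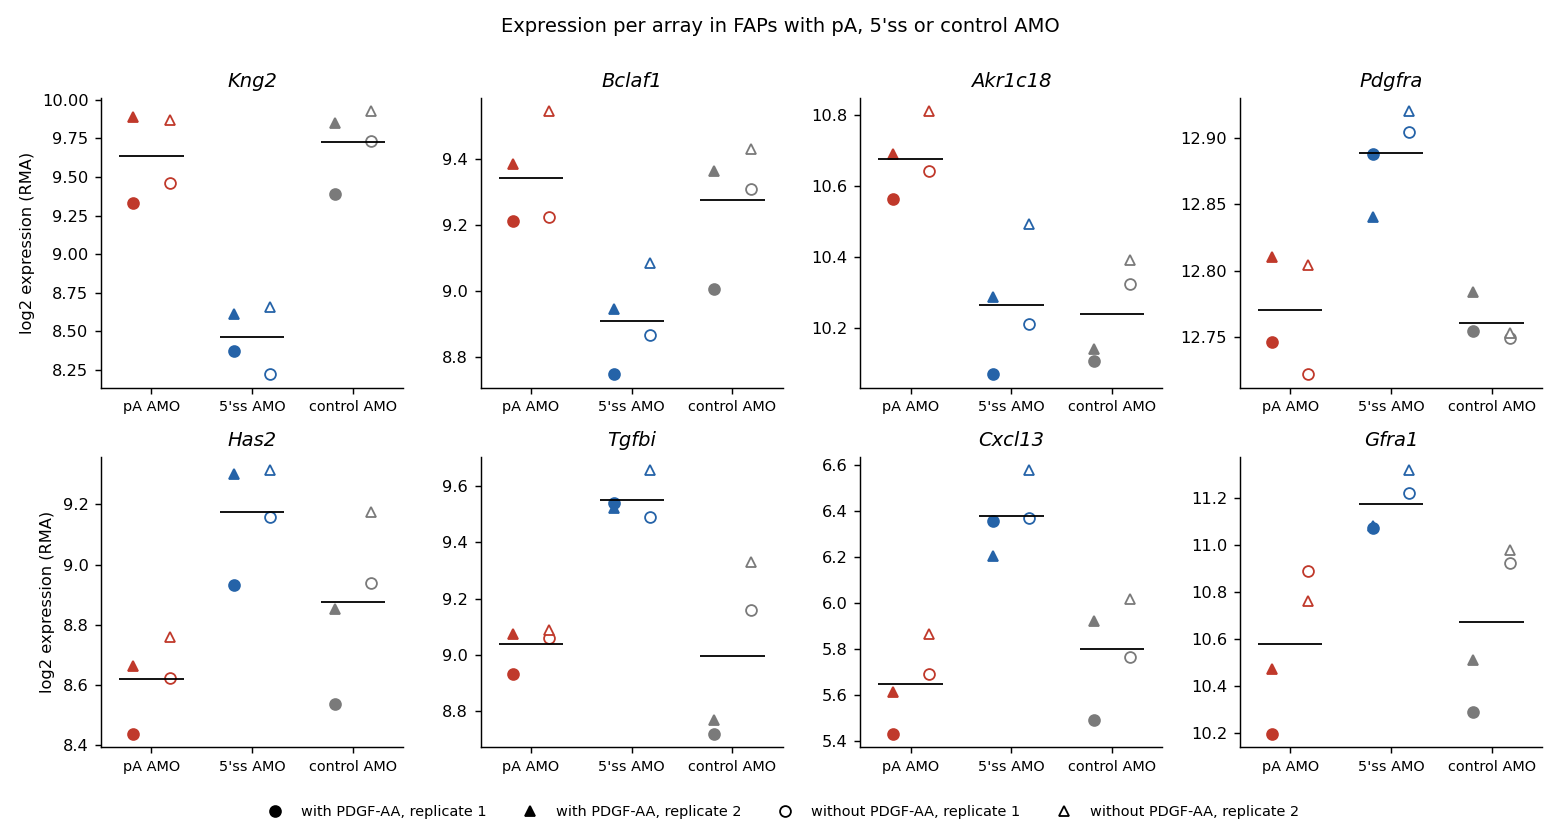
Log2 expression of 8 genes on each of the 12 arrays, with pA AMO on the left, 5'ss AMO in the middle and control AMO on the right of each panel. Circles are replicate 1, triangles replicate 2, filled marks had PDGF-AA, and lines are means of 4 arrays. The 4 Kng2 values with pA AMO lie at 9.33 to 9.89, above the 4 with 5'ss AMO at 8.22 to 8.66.

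Kng2 and the 4 genes that came next by p (Rgs2, Cxcl13, Has2 and Tgfbi) were looked up among RefSeq promoters of GRCm38.p6, 250 bases before to 50 after the start of the gene, and 4 of the 5 were listed. They are shown because these genes lead the comparison, Kng2 higher and the others lower with pA AMO. Capitals mark matches, on either strand, to the letters of 5 motifs, the TATA box TATAAA, the CCAAT box with the letters of its name, the GC box GGGCGG, the AP-1 site TGANTCA and the CRE half-site TGACG.
Kng2 (chr16:23029052-23029351, minus strand): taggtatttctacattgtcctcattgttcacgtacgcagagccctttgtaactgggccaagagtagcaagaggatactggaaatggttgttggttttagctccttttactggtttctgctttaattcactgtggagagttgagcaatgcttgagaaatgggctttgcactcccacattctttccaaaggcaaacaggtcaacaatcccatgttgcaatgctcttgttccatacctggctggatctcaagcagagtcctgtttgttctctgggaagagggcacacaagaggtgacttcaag
Rgs2 (chr1:144004100-144004399, minus strand): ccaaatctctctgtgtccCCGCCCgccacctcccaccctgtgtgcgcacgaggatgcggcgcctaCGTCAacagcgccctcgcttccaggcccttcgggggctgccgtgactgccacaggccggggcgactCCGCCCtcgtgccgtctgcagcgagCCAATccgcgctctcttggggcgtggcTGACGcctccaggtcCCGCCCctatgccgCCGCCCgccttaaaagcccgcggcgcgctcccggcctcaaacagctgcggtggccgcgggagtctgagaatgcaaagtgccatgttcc
Cxcl13 (chr5:95956689-95956988, plus strand): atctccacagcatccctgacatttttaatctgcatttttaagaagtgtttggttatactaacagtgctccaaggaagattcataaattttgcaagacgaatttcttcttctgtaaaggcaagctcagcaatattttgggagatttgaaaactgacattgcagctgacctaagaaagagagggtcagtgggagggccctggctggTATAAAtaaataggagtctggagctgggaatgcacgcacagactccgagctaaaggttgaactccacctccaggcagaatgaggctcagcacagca
Tgfbi (chr13:56609336-56609635, plus strand): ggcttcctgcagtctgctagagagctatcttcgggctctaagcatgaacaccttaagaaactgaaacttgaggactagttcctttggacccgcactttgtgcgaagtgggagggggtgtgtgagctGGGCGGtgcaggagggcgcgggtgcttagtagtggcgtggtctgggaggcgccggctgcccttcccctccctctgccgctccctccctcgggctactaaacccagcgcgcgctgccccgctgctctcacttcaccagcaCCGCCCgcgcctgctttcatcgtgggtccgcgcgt
The Kng2 window holds 0 matches to the 5 motifs. The Rgs2 window holds 4 matches to the GC box, 1 to the CCAAT box and 2 to the CRE half-site, the Cxcl13 window 1 to the TATA box and the Tgfbi window 2 to the GC box. Of all 32851 promoters of this length in the table, 13.6% hold the TATA box, 37.4% the CCAAT box, 35.7% the GC box, 7.8% the AP-1 site and 20.8% the CRE half-site. The share of G and C was 45.3% for Kng2, 44.0% for Cxcl13, 63.3% for Tgfbi and 70.0% for Rgs2, against a median of 52.7% over all promoters.

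Across the transcriptome Kng2 was the 1 call. At an unadjusted p under 0.05 there were 1862 clusters (8.55%), 833 higher with pA AMO (3.82%) and 1029 lower (4.72%). Groups without overlap were 217 with pA higher (0.996%) and 360 with pA lower (1.65%), and in 3856 clusters (17.7%) the 4 matched pairs had the same direction, higher with pA AMO in 7.67% and lower in 10%. The 12 genes with the smallest p in each direction, among clusters at a mean log2 of at least 6, are described next. In all 24 the 4 pairs had the same direction and in 20 the groups did not overlap. These genes were ranked on the same differences, so that both counts describe the choice.

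**Figure D2:**
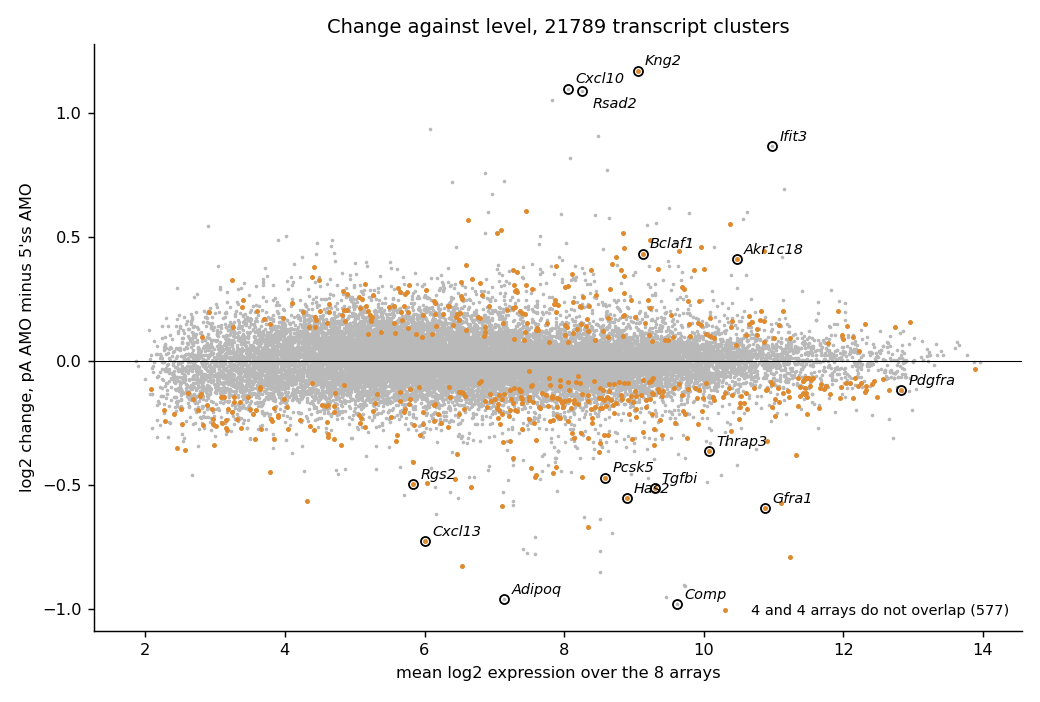
Log2 change, pA AMO minus 5'ss AMO, against the mean log2 expression of the 8 arrays, for 21789 transcript clusters. Orange points are the 577 clusters whose pA and 5'ss arrays do not overlap. Kng2 lies at 1.17, while Cxcl10 and Rsad2, at 1.10 and 1.09, have overlapping groups.

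Of the 12 genes lower with pA AMO, Has2, which makes the matrix polymer hyaluronan, stood at 8.44, 8.66, 8.62 and 8.76 on pA arrays, against 8.93, 9.30, 9.16 and 9.31 on 5'ss arrays. The groups did not overlap, and the control arrays lay between them on average (mean 8.88), nearer to pA. The change was -0.55 (SE 0.056, adjusted p = 0.0613), so that Has2 was 1.47-fold higher with 5'ss AMO. Of 23 genes of hyaluronan synthesis, turnover and binding, a list chosen after values were seen, 13 lay below 0 (median -0.02), with the hyaluronan-binding Tnfaip6 at -0.39 (SE 0.070), the hyaluronan receptor gene Hmmr at 0.29 (SE 0.13) and Hapln1, which links hyaluronan to proteoglycans, at -0.16 (SE 0.079). In this list leaving out 1 array took Hmmr to 0.14 (the pA array with PDGF-AA replicate 1), and Hapln1 to -0.084 (the 5'ss array with PDGF-AA replicate 2).

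Tgfbi, a matrix protein induced by TGF-beta, stood at 8.93, 9.08, 9.06 and 9.09 on pA arrays, against 9.54, 9.52, 9.49 and 9.66 on 5'ss arrays. The groups did not overlap, and the change was -0.51 (SE 0.054, adjusted p = 0.0613). The control arrays differed by dose, at 8.72 and 8.77 with PDGF-AA and 9.16 and 9.33 without it. Of 21 genes of TGF-beta ligands, receptors and targets, 15 lay below 0 (median -0.03) and 0 passed, with the ligand gene Tgfb2 at -0.29 (SE 0.095), Lrrc32, which docks latent TGF-beta at the cell surface, at 0.25 (SE 0.14) and the target gene Pmepa1 at 0.18 (SE 0.15). Leaving out 1 array took Tgfb2 to -0.18 and Pmepa1 to 0.0027 (the pA array with PDGF-AA replicate 1), and Lrrc32 to 0.083 (the 5'ss array with PDGF-AA replicate 1). Cxcl13, a chemokine that attracts B cells, stood at 5.43, 5.61, 5.69 and 5.86 on pA arrays, against 6.35, 6.20, 6.37 and 6.57 on 5'ss arrays. Its groups did not overlap, the control mean of 5.796 lay nearer to pA, and the change was -0.73 (SE 0.071, adjusted p = 0.058).

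Rgs2 shortens signals of G protein-coupled receptors. Its mean lies below the level of 6, and it is given because its p was the second smallest, a choice made after its values were seen. It stood at 5.35, 5.83, 5.39 and 5.77 on pA arrays, against 5.86, 6.31, 5.85 and 6.31 on 5'ss arrays. The groups were just apart, and the change was -0.50 (SE 0.048, adjusted p = 0.058), with matched pairs between -0.54 and -0.47. Of 20 genes of RGS proteins, also a list chosen after values were seen, 11 lay below 0 with a median of -0.02. Against 1.65% of all clusters with pA lower and no overlap, the list held 1, Rgs2 itself, whose values were seen before. Next to it by size were Rgs13 at -0.21 (SE 0.12), Rgs4 at 0.14 (SE 0.065) and Rgs21 at 0.13 (SE 0.088), and leaving out 1 array took Rgs4 to 0.091 and Rgs21 to 0.071 (the 5'ss array with PDGF-AA replicate 1), and Rgs13 to -0.099 (the 5'ss array with PDGF-AA replicate 2).

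Gfra1, the receptor subunit that binds the neurotrophic factor GDNF, stood at 10.20, 10.47, 10.89 and 10.76 on pA arrays, against 11.07, 11.08, 11.22 and 11.32 on 5'ss arrays. All pA arrays lay below all 5'ss arrays, and the control arrays lay near the pA arrays, at 10.29 and 10.51 with PDGF-AA and 10.92 and 10.98 without it. The change was -0.59 (SE 0.087, adjusted p = 0.197). Ret, the kinase through which GDNF receptors signal, stood at 7.71, 7.55, 7.60 and 7.58 on pA arrays, against 7.98, 8.40, 7.88 and 7.98 on 5'ss arrays, a change of -0.45 (SE 0.097, adjusted p = 0.451) without overlap. Of 10 genes of GDNF ligands and receptors, a list chosen after values were seen, 9 lay below 0 (median -0.10) and 0 passed. In 3 of them, Gfra1 and Ret included, the pA arrays lay lower without overlap, against 1.65% of all clusters. The co-receptor genes Gfra2 and Gfra4 were at -0.19 (SE 0.12) and -0.14 (SE 0.060), and leaving out 1 array took Gfra4 to -0.093 (the pA array with PDGF-AA replicate 2), and Gfra2 to -0.037 (the 5'ss array with PDGF-AA replicate 2).

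Fgfr2, a receptor of fibroblast growth factors, was at -0.48 (SE 0.064, adjusted p = 0.173), with matched pairs between -0.63 and -0.31. Of 16 FGF receptor and ligand genes 9 lay above 0 (median 0.01), with Fgf9 at -0.23 (SE 0.065), the receptor-like Fgfrl1 at -0.20 (SE 0.062) and Fgf18 at -0.14 (SE 0.090). Epha4, a receptor of ephrins, which signal between touching cells, was at -0.43 (SE 0.069, adjusted p = 0.299) without overlap. Of 21 Eph receptor and ephrin genes 13 lay below 0 (median -0.06) and 0 passed, with Efna1 at -0.20 (SE 0.054), Epha7 at -0.19 (SE 0.055) and Efnb1 at -0.19 (SE 0.079). In both lists, which were chosen after the values of Fgfr2 and Epha4 were seen, leaving out 1 array took Efnb1 to -0.11 (the 5'ss array with PDGF-AA replicate 2), and Fgf18 to -0.045 (the 5'ss array without PDGF-AA replicate 2).

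Among the other genes of this side Pcsk5, a convertase of secreted precursors, was at -0.47 (SE 0.067), and Adamts4, a protease of aggrecan and versican, at -0.46 (SE 0.067), both without overlap. Rnf144a, a ubiquitin ligase, was at -0.39 (SE 0.056) and the secreted Olfml2b at -0.35 (SE 0.060). Hacd2, an enzyme of the elongation of very long fatty acids, was at -0.35 (SE 0.050) in 1 cluster and at -0.27 (SE 0.078) in its other. Adjusted p of these 5 genes lay between 0.196 and 0.383. Thrap3, a nuclear protein of transcription and RNA processing, stood at 9.87, 9.88, 9.86 and 9.94 on pA arrays, against 10.25, 10.24, 10.23 and 10.30 on 5'ss arrays. The groups did not overlap, and the change was -0.36 (SE 0.048, adjusted p = 0.173), with matched pairs between -0.37 and -0.36.

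On the side higher with pA AMO, Bclaf1, a nuclear protein related to Thrap3, stood at 9.21, 9.39, 9.23 and 9.55 on pA arrays, against 8.75, 8.94, 8.87 and 9.08 on 5'ss arrays. Every pA array lay above every 5'ss array, and the control arrays lay at 9.004 to 9.43. The change was 0.43 (SE 0.051, adjusted p = 0.113), opposite in sign to that of Thrap3. Of 9 genes of Bclaf1, Thrap3 and other proteins rich in arginine and serine, chosen after values were seen, 7 lay above 0 (median 0.01), with Rnps1 at 0.06 (SE 0.053) and Son at 0.05 (SE 0.054), where leaving out 1 array took Rnps1 to 0.030 and Son to 0.019 (the pA array without PDGF-AA replicate 2).

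Akr1c18, an enzyme that inactivates progesterone, stood at 10.56, 10.69, 10.64 and 10.81 on pA arrays, against 10.07, 10.29, 10.21 and 10.49 on 5'ss arrays. The groups did not overlap, and here the control arrays, at 10.11 to 10.39, lay below all pA arrays. The change was 0.41 (SE 0.052, adjusted p = 0.147). Pla1a, a phospholipase of phosphatidylserine, was at 0.46 (SE 0.075) and Angpt4, an angiopoietin, at 0.35 (SE 0.060). H2-T10, of the class I family of the major histocompatibility complex, was at 0.36 (SE 0.053). RefSeq lists H2-T10 as a transcribed pseudogene, and close relatives may share its probes. Pamr1, named for its link to muscle regeneration, was at 0.30 (SE 0.048), Plat, the tissue plasminogen activator, at 0.25 (SE 0.051), and Prpsap1, a partner of an enzyme of nucleotide synthesis, at 0.27 (SE 0.055). Cdc27, a subunit of the anaphase-promoting complex, was at 0.24 (SE 0.052), Phtf1 at 0.23 (SE 0.048) and Tpcn2, an ion channel of lysosomes, at 0.22 (SE 0.048). In these 9 genes the groups did not overlap, and adjusted p lay between 0.205 and 0.451.

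**Figure D3:**
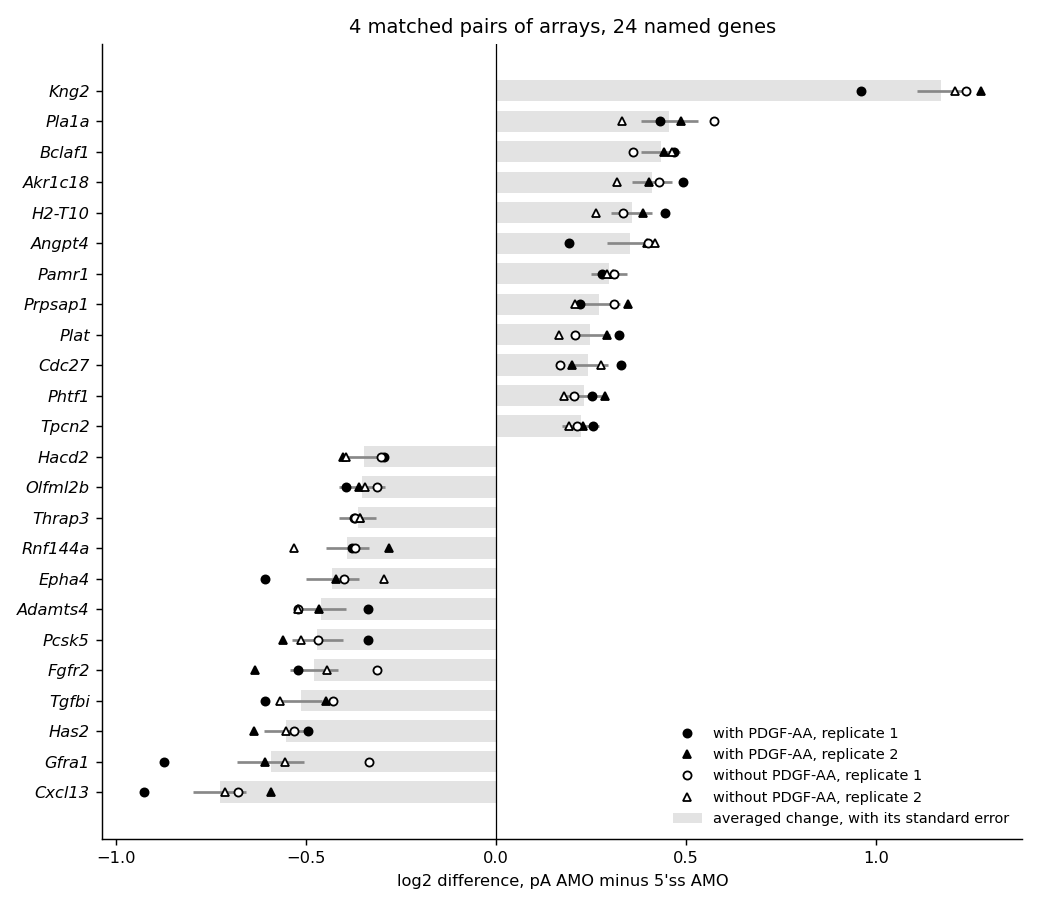
Log2 difference, pA AMO minus 5'ss AMO, in each of the 4 matched pairs for the 24 genes with the smallest p, 12 in each direction. Bars are the averaged change with its standard error, circles are replicate 1, triangles replicate 2, and filled marks had PDGF-AA. The 4 pairs of Kng2 lie between 0.96 and 1.28 and those of Thrap3 between -0.37 and -0.36.

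The control AMO arrays lay closer to the pA arrays than to the 5'ss arrays for most of these genes. Of the 12 genes lower with pA AMO, the control mean lay between the AMO means and nearer to pA in 10 and below both in 2 (Tgfbi and Hacd2). Of the 12 higher with pA AMO, it lay between and nearer to pA in 7, between and nearer to 5'ss in 2 (Pamr1 and Plat), above both in 2 (Kng2 and Tpcn2) and below both in 1 (Akr1c18). The control arrays entered no test here. The same positions are not given over all clusters, so that these counts describe the chosen genes only.

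By condition, 0 clusters passed with PDGF-AA (limma, 1834 at an unadjusted p under 0.05, 8.42%, of which 3.91% higher and 4.51% lower with pA AMO), and 0 without PDGF-AA (1258, 5.77%, of which 3.18% higher and 2.6% lower with pA AMO). The interaction of AMO and dose gave 0 calls, with 1199 clusters at an unadjusted p under 0.05 (5.5%, 2.25% above and 3.25% below 0) and a smallest adjusted p of 0.881. Without the 5'ss array with PDGF-AA replicate 2, 13 clusters passed with PDGF-AA and 7 passed for the interaction. That group then held 1 array, replicate 1, assumed to vary like the other groups. Of the 13 clusters 9 belonged to 8 genes of the adipocyte list (Cd36, Plin1, Adipoq, Retn, Gpd1, Fabp5, Lipe and Fabp4), and of the 7 clusters 5 did (Plin1, Cd36, Adipoq, Gpd1 and Retn). The adipocyte list has 28 measured genes, against 21789 clusters tested. The other clusters were Lgals12 and Hsd3b6 in both comparisons, and Gnai1 and Cdo1 with PDGF-AA. Every cluster of these that was lower with pA AMO was highest of the 8 arrays on the 1 array left in that group. That held in the adipocyte list and outside it, so it is not particular to the list. Hsd3b6 alone was higher with pA AMO and not highest there. Comp, a matrix protein of cartilage and tendon, stood at 8.08, 8.81, 9.76 and 9.85 on pA arrays, against 9.82, 10.47, 9.95 and 10.18 on 5'ss arrays. The pA arrays with PDGF-AA were the low ones, and the control arrays with PDGF-AA, at 8.43 and 9.11, lay near them. The difference was -1.70 (SE 0.16, adjusted p = 0.161) with PDGF-AA and -0.26 (SE 0.16, adjusted p = 0.876) without it, an interaction of -1.44 (SE 0.23, adjusted p = 0.881).

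Other genes were named because their p with PDGF-AA was among the 4 smallest in a direction. Draxin, an axon guidance protein, was at -0.997 (SE 0.11) with PDGF-AA and -0.34 (SE 0.11) without it. Egfl6, a secreted protein, was at -0.78 (SE 0.090) with and -0.32 (SE 0.090) without PDGF-AA. Galnt9, which starts mucin-type glycosylation, was at -0.82 (SE 0.11) with and -0.13 (SE 0.11) without PDGF-AA. On the higher side, Plau, the urokinase, was at 0.49 (SE 0.071) with and -0.000 (SE 0.071) without PDGF-AA, and Kif20a, a mitotic kinesin, at 0.62 (SE 0.086) and 0.12 (SE 0.086). The matrix gene Hmcn1, in 1 of its 77 clusters, was at 0.55 (SE 0.090) and -0.15 (SE 0.090). Averaged over both conditions, that cluster was at 0.20 (SE 0.14), and the other Hmcn1 clusters ran from -0.12 (SE 0.051) to 0.38 (SE 0.10). Adjusted p with PDGF-AA lay between 0.204 and 0.325 for these 6 genes.

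Of the genes named for their p without PDGF-AA, Arc, an immediate early gene of neurons, was at 0.16 (SE 0.084) with and 0.55 (SE 0.084) without PDGF-AA, and Vwa3b, in 1 of its 8 clusters, at -0.11 (SE 0.077) and 0.41 (SE 0.077). Averaged over both conditions, that Vwa3b cluster was at 0.15 (SE 0.11), and its other clusters ran from -0.18 (SE 0.063) to 0.18 (SE 0.075). Bclaf1, Cxcl13, Has2 and Tgfbi, described above, were the other genes so named besides Kng2. The cAMP phosphodiesterase gene Pde4d was at -0.10 (SE 0.10) with PDGF-AA and -0.77 (SE 0.10) without it in 1 of its 3 clusters. Its brightest cluster averaged -0.23 (SE 0.077) without overlap, and its dimmest, at a mean log2 of 3.36, averaged 0.03 (SE 0.13). Adjusted p without PDGF-AA was 0.833 for each of these 3 genes.

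Other genes were named because their p for the interaction was among the 4 smallest in a direction, with adjusted p of 0.881 for each. Masp1, a protease of the lectin pathway of complement, stood at 9.27, 8.83, 8.70 and 8.56 on pA arrays, against 8.21, 8.33, 9.02 and 8.80 on 5'ss arrays. It was at 0.77 (SE 0.13) with PDGF-AA and -0.28 (SE 0.13) without it, an interaction of 1.05 (SE 0.18). Hsd3b6, a steroid dehydrogenase, was at 1.64 (SE 0.32) with and -0.63 (SE 0.32) without PDGF-AA, and Rtl3, derived from a retrotransposon, at 0.68 (SE 0.13) and -0.24 (SE 0.13). These 3 had opposite signs in the 2 conditions. Agt was at -0.60 (SE 0.095) with and 0.05 (SE 0.095) without PDGF-AA, and Cebpa, a transcription factor of adipocytes, at -0.67 (SE 0.097) and -0.01 (SE 0.097), both within 1 SE of 0 without PDGF-AA.

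The members of 30 gene lists were set beside all clusters, of which 10773 of 21789 lay above 0 and the median was -0.0013. In these 30 lists 0 genes passed. Of 30 genes of the interferon response 29 lay above 0 (median 0.42), and 3 had no overlap, against 0.996% of all clusters with pA higher. The antiviral gene Rsad2 stood at 10.11, 8.82, 8.51 and 7.77 on pA arrays, against 7.12, 8.56, 7.29 and 7.89 on 5'ss arrays. The chemokine gene Cxcl10 stood at 10.61, 8.33, 7.95 and 7.53 on pA arrays, against 6.93, 8.38, 7.08 and 7.65 on 5'ss arrays. In both the pA array with PDGF-AA replicate 1 was the highest of the 8. The changes were 1.09 (SE 0.43, adjusted p = 0.562) for Rsad2 and 1.10 (SE 0.56, adjusted p = 0.63) for Cxcl10. Ifit3, which restrains viruses, was at 0.87 (SE 0.30), and Mx1, listed by RefSeq as a transcribed pseudogene, at 0.94 (SE 0.44). For these genes leaving out 1 array took Cxcl10 to 0.39 (the pA array with PDGF-AA replicate 1), and Rsad2 to 0.60, Ifit3 to 0.53 and Mx1 to 0.40 (the 5'ss array with PDGF-AA replicate 1). The list median was 0.93 and 0.52 in the replicate 1 pairs, with and without PDGF-AA, and -0.01 and 0.06 in the replicate 2 pairs. It was 0.27 without the pA array with PDGF-AA replicate 1.

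Of 15 genes that sense foreign nucleic acid or relay the signal, 14 lay above 0 (median 0.19). The pair medians were 0.33, -0.01, 0.13 and 0.06, and the median was 0.08 without the 5'ss array with PDGF-AA replicate 1. Zbp1, a sensor of nucleic acid in the Z form, stood at 10.28, 9.60, 9.82 and 9.74 on pA arrays, against 9.46, 9.50, 9.23 and 9.49 on 5'ss arrays, a change of 0.44 (SE 0.13, adjusted p = 0.507) without overlap, with the control mean at 10.04. The RNA sensor genes Dhx58, Ifih1 and Ddx58 were at 0.45 (SE 0.18), 0.40 (SE 0.17) and 0.35 (SE 0.14). All 4 genes are also in the interferon list, and leaving out 1 array took Dhx58 to 0.26, Ifih1 to 0.21 and Ddx58 to 0.19 (the pA array with PDGF-AA replicate 1).

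Of 45 cell cycle and DNA replication genes 42 lay above 0 (median 0.14), and 4 had no overlap, against 0.996% of all clusters with pA higher. Kif20a stood at 8.77, 8.61, 8.39 and 8.48 on pA arrays, against 8.08, 8.08, 8.37 and 8.27 on 5'ss arrays, a change of 0.37 (SE 0.11, adjusted p = 0.499) without overlap. Prc1, a protein of the spindle midzone, was at 0.39 (SE 0.13), the mitotic kinase gene Plk1 at 0.35 (SE 0.13) and the cyclin gene Ccna2 at 0.33 (SE 0.13). Of these, leaving out 1 array took Prc1 to 0.25, Plk1 to 0.20 and Ccna2 to 0.17 (the 5'ss array with PDGF-AA replicate 1). The pair medians were 0.40, 0.13, 0.03 and 0.11, highest in the pair with PDGF-AA replicate 1.

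Metabolic lists differed between the pairs. Of 20 cholesterol synthesis genes 17 lay above 0 with PDGF-AA (median 0.10) and 0 without it (median -0.25). The pair medians were 0.36, -0.17, -0.24 and -0.28, so that the pair with PDGF-AA replicate 1 alone was above 0. Idi1, an isomerase of the pathway, had pair differences of 0.61, -0.41, -0.40 and -0.45, and Dhcr7 and Tm7sf2, reductases of its last steps, averaged -0.15 (SE 0.10) and -0.17 (SE 0.12), while Mvd, a decarboxylase of mevalonate, averaged -0.12 (SE 0.089). In the cholesterol list leaving out 1 array took Mvd to -0.22 (the pA array with PDGF-AA replicate 1), Dhcr7 to -0.075 (the 5'ss array with PDGF-AA replicate 2), and Tm7sf2 to -0.059 (the 5'ss array without PDGF-AA replicate 2). Of 17 glycolysis and glucose uptake genes 15 lay above 0 with PDGF-AA (median 0.22) and 2 without it (median -0.11), with pair medians of 0.26, 0.14, -0.12 and -0.11. Averaged over both conditions, Pfkfb3, which makes an activator of glycolysis, was at -0.17 (SE 0.085), the glucose transporter gene Slc2a3 at -0.17 (SE 0.062), and the enzyme genes Pgam1 and Pfkp at 0.17 (SE 0.070) and 0.12 (SE 0.059). Of 19 other hypoxia-inducible genes 16 lay above 0 with PDGF-AA (median 0.18) and 4 without it (median -0.10). The pair medians of this list were 0.30, 0.06, -0.09 and -0.12, largest in the pair with PDGF-AA replicate 1. In the hypoxia list 1 gene was higher and 2 lower with pA AMO without overlap, against 0.996% and 1.65% of all clusters. Among these were Ndrg1, a stress-responsive gene, averaging -0.21 (SE 0.051), and Adm, the vasodilator adrenomedullin, 0.20 (SE 0.065). The carbonic anhydrase gene Car12 averaged 0.15 (SE 0.082) and Mxi1, an antagonist of Myc, -0.12 (SE 0.071). In both lists leaving out 1 array took Pfkp to 0.073 (the pA array with PDGF-AA replicate 1), Pfkfb3 to -0.10 (the pA array without PDGF-AA replicate 1), and Car12 to 0.077 and Mxi1 to -0.077 (the 5'ss array without PDGF-AA replicate 2).

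Adipocyte genes lay mostly below 0, 23 of 28 with a median of -0.28. Adipoq, the hormone adiponectin, stood at 5.99, 7.19, 5.96 and 7.50 on pA arrays, against 9.31, 7.41, 6.02 and 7.75 on 5'ss arrays. The 5'ss array with PDGF-AA replicate 1 was the highest of the 8. The pair medians of the list were -0.77, -0.10, 0.01 and -0.08, and the median was -0.04 without that array. Its level per array ran over 7.36 to 8.37 on pA arrays and 7.53 to 8.86 on 5'ss arrays. Among the members, Fabp5, which carries fatty acids, was at -0.78 (SE 0.28), the muscle and fat carbonic anhydrase gene Car3 at -0.95 (SE 0.58), and the hormone gene Retn at -0.83 (SE 0.31), without overlap. Among these, leaving out 1 array took Adipoq to -0.12, Fabp5 to -0.45, Car3 to -0.20 and Retn to -0.40 (the 5'ss array with PDGF-AA replicate 1). The same 5'ss array had the lowest median of the cell cycle and the interferon lists among the 8 arrays.

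Genes of muscle fibres and their precursors lay mostly above 0, 30 of 34 with a median of 0.20. The myosin gene Myh1 stood at 7.29, 6.75, 7.82 and 7.12 on pA arrays, against 6.55, 6.402, 6.19 and 6.81 on 5'ss arrays. The pair medians of the list were -0.13, 0.06, 0.89 and 0.05, largest in the pair without PDGF-AA replicate 1, and the median was -0.01 without the 5'ss array of that pair. Its level per array ran over 6.72 to 7.51 on pA arrays and 6.56 to 7.03 on 5'ss arrays. The sarcomere genes Myl1 and Neb were at 0.59 (SE 0.23) and 0.39 (SE 0.19), and Myh8, a perinatal myosin, at 0.52 (SE 0.17) without overlap. In the muscle list leaving out 1 array took Myh1 to 0.50, Myl1 to 0.31, Neb to 0.16 and Myh8 to 0.30 (the 5'ss array without PDGF-AA replicate 1). The part of the muscle and adipocyte markers in the other differences, that of Kng2 included, was not tested.

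**Figure D4:**
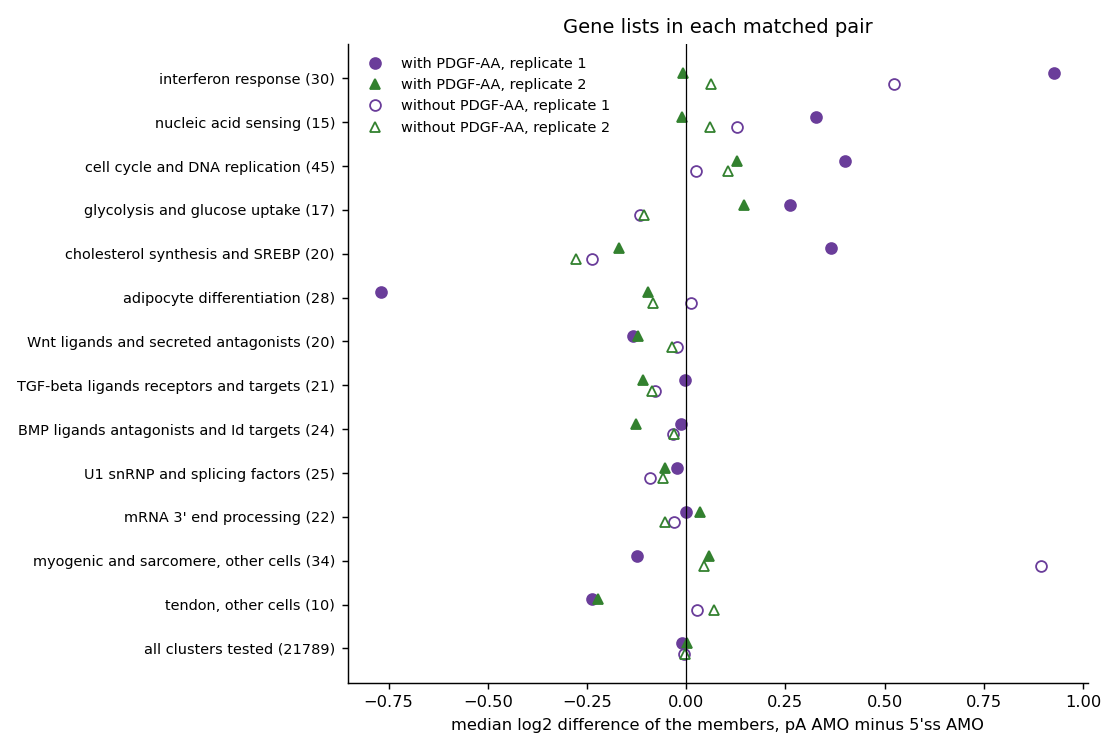
Median log2 difference, pA AMO minus 5'ss AMO, of the members of gene lists in each of the 4 matched pairs. Circles are replicate 1, triangles replicate 2, and filled marks had PDGF-AA. The interferon list lies at 0.93 and 0.52 in replicate 1, with and without PDGF-AA, and at -0.01 and 0.06 in replicate 2.

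**Figure D5:**
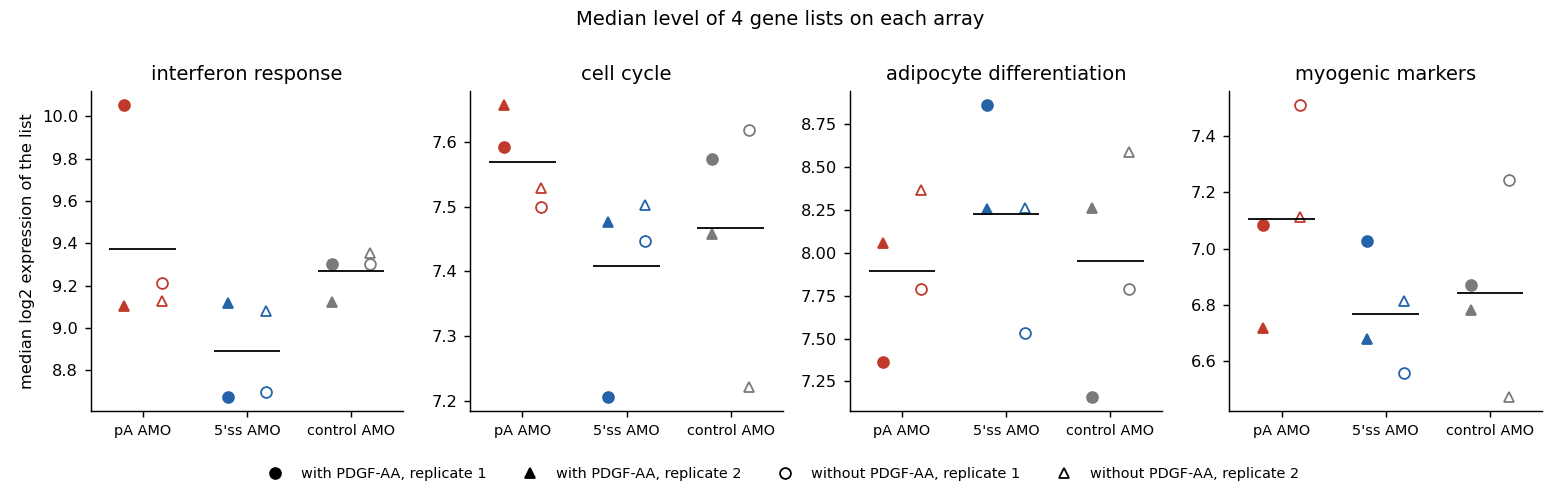
Median log2 expression of 4 gene lists on each of the 12 arrays, with pA AMO on the left, 5'ss AMO in the middle and control AMO on the right, marks as in the plot of single genes and lines for means of 4 arrays. A pA array is the highest for the interferon list (10.05) and a 5'ss array for the adipocyte list (8.86), and both are replicate 1 with PDGF-AA.

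Lists of growth factor pathways had medians near 0. Of 24 genes of BMP ligands, antagonists and Id targets 20 lay below 0 (median -0.05). Bmp4 stood at 9.58, 9.22, 9.80 and 9.82 on pA arrays, against 9.86, 10.06, 9.90 and 9.84 on 5'ss arrays, a change of -0.31 (SE 0.12, adjusted p = 0.562). Bmp6 stood at 9.91, 9.49, 9.32 and 9.38 on pA arrays, against 9.03, 9.24, 9.22 and 9.14 on 5'ss arrays, a change of 0.37 (SE 0.12, adjusted p = 0.512). In both ligands the groups did not overlap, as in 0.996% of all clusters with pA higher and 1.65% with pA lower. Their signs were opposite. The BMP antagonist gene Chrdl1 was at -0.35 (SE 0.18) and the target gene Id4 at -0.32 (SE 0.099). With 1 array left out, Bmp4 came to -0.17 (without the pA array with PDGF-AA replicate 2), Bmp6 to 0.23 and Chrdl1 to -0.15 (both without the pA array with PDGF-AA replicate 1), and Id4 to -0.20 (without the 5'ss array with PDGF-AA replicate 2). Of 20 genes of Wnt ligands and secreted antagonists 14 lay below 0 (median -0.09), with the antagonist gene Sfrp4 at -0.31 (SE 0.15), Rspo1, which strengthens Wnt signals, at -0.29 (SE 0.075), and the ligand genes Wnt2 at -0.23 (SE 0.059) and Wnt11 at -0.23 (SE 0.085), and leaving out 1 array took Sfrp4 to -0.12 (the pA array with PDGF-AA replicate 1), and Wnt11 to -0.14 (the pA array with PDGF-AA replicate 2). Of 14 IGF genes 9 lay below 0 (median -0.07). The growth factor gene Igf1 stood at 9.41, 9.32, 9.71 and 9.71 on pA arrays, against 9.50, 9.80, 10.23 and 10.19 on 5'ss arrays, a change of -0.39 (SE 0.080, adjusted p = 0.451), while Igf2 was at 0.37 (SE 0.19), the binding protein gene Igfbp3 at -0.35 (SE 0.13) and Irs2, an adaptor of the receptor, at -0.15 (SE 0.071). In the IGF list leaving out 1 array took Irs2 to -0.087 (the pA array with PDGF-AA replicate 1), Igfbp3 to -0.21 (the 5'ss array with PDGF-AA replicate 2), and Igf2 to 0.14 (the 5'ss array without PDGF-AA replicate 1).

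Matrix and contractile genes lay near 0. The medians were 0.02 for 18 collagens, 0.05 for 31 other matrix proteins and -0.04 for 15 contractile genes, and each changed sign when 1 of the 8 arrays was left out. Of the collagens, Col15a1 of basement membrane zones was at -0.47 (SE 0.22), Col14a1, which joins collagen fibrils, at -0.34 (SE 0.079), Col6a1 at -0.15 (SE 0.069) and Col5a2 at 0.08 (SE 0.13). Tnc, the matrix protein tenascin C, was at 0.31 (SE 0.30), the proteoglycan gene Ogn at 0.28 (SE 0.10), the microfibril gene Mfap5 at 0.24 (SE 0.15) and Ccn2, connective tissue growth factor, at 0.23 (SE 0.24). Of the contractile genes, the actin genes Acta2 and Acta1 were at -0.32 (SE 0.29) and 0.28 (SE 0.26), the myosin light chain gene Myl9 at -0.29 (SE 0.16) and the collagen receptor gene Itga11 at -0.21 (SE 0.064). In these 3 lists leaving out 1 array took Col6a1 to -0.079 (the pA array with PDGF-AA replicate 1), Col15a1 to -0.21, Col5a2 to -0.069, Tnc to -0.085, Mfap5 to 0.057 and Ccn2 to -0.028 (the 5'ss array with PDGF-AA replicate 1), Ogn to 0.18 and Acta2 to 0.025 (the 5'ss array with PDGF-AA replicate 2), and Acta1 to -0.050 and Myl9 to -0.15 (the 5'ss array without PDGF-AA replicate 1).

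Proteases and FAP markers were counted as well. Of 21 matrix proteases and inhibitors 13 lay above 0 (median 0.03), with Mmp11 at 0.22 (SE 0.097) besides Adamts4, Plat and Plau, and leaving out 1 array took Mmp11 to 0.10 (the 5'ss array with PDGF-AA replicate 2). Of 21 FAP and fibroblast genes 13 lay above 0 (median 0.03), and 3 had no overlap, all lower with pA AMO, as were 1.65% of all clusters. Besides Pdgfra these were Osr1, a transcription factor of muscle connective tissue, at -0.22 (SE 0.055), and Pi16, a marker of a fibroblast progenitor population, at -0.58 (SE 0.16). Fap, a surface protease of fibroblasts, was at -0.39 (SE 0.13), and Dpp4, a marker of the same population as Pi16, at 0.38 (SE 0.16). Among these markers, leaving out 1 array took Pi16 to -0.37 (the 5'ss array with PDGF-AA replicate 1), and Dpp4 to 0.18 (the 5'ss array with PDGF-AA replicate 2).

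Markers of further cell types stood as follows. Of 10 tendon genes 8 lay below 0 (median -0.15, and -0.07 without the pA array with PDGF-AA replicate 1). Besides Comp, the matrix genes Fmod and Thbs4 were at -0.27 (SE 0.17) and -0.20 (SE 0.13) and Tppp3 at -0.17 (SE 0.063), and leaving out 1 array took Thbs4 to -0.048 (the 5'ss array with PDGF-AA replicate 1), and Fmod to -0.096 (the 5'ss array with PDGF-AA replicate 2). Of 10 smooth muscle and pericyte genes 6 lay below 0 (median -0.04), with the filament gene Des, also a muscle fibre gene, at 0.38 (SE 0.27) and the pericyte proteoglycan gene Cspg4 at 0.22 (SE 0.073). Kcnj8 at -0.32 (SE 0.059) and Abcc9 at -0.32 (SE 0.080), which form a potassium channel of pericytes, were the 2 without overlap, against 1.65% of all clusters with pA lower. Here leaving out 1 array took Des to 0.017 (the 5'ss array without PDGF-AA replicate 1). Above 0 lay 6 of 12 endothelial, 8 of 18 leukocyte and 4 of 9 Schwann cell genes. Of the endothelial genes Esam was at 0.21 (SE 0.058), Tie1 at 0.13 (SE 0.051), Tek at 0.11 (SE 0.057) and Robo4 at 0.11 (SE 0.10). Of the leukocyte genes Lyz2 was at -0.25 (SE 0.12), Cd52 at 0.15 (SE 0.083), Fcer1g at 0.14 (SE 0.055) and Aif1 at -0.13 (SE 0.066). The Schwann cell genes Gfap, S100b, Mbp and Ngfr were at 0.09, -0.07, 0.07 and -0.06. For these 3 cell types leaving out 1 array took S100b to -0.021 and Ngfr to 0.034 (the pA array with PDGF-AA replicate 1), Robo4 to 0.0061 (the pA array without PDGF-AA replicate 1), Cd52 to 0.086 (the 5'ss array with PDGF-AA replicate 1), Lyz2 to -0.11 (the 5'ss array with PDGF-AA replicate 2), and Gfap to 0.016 and Mbp to 0.030 (the 5'ss array without PDGF-AA replicate 2).

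Among genes of signalling and inflammation, Myc, a transcription factor of growth, stood at 8.93, 8.95, 8.98 and 9.07 on pA arrays, against 9.18, 9.34, 9.22 and 9.34 on 5'ss arrays, a change of -0.28 (SE 0.050, adjusted p = 0.427) without overlap. Of 24 immediate early and MAPK feedback genes 13 lay above 0 (median 0.01), with the inhibitors Spred1 at 0.19 (SE 0.049) and Dusp6 at 0.18 (SE 0.066) and the immediate early gene Ier3 at -0.18 (SE 0.076). Of 27 cytokine and chemokine genes 16 lay above 0 (median 0.0017), with Il33, an alarmin, at -0.38 (SE 0.12) without overlap and the interferon-induced Cxcl9 at 0.91 (SE 0.41). In both lists leaving out 1 array took Il33 to -0.24 and Cxcl9 to 0.48 (the pA array with PDGF-AA replicate 1), Dusp6 to 0.12 (the pA array without PDGF-AA replicate 2), and Ier3 to -0.11 (the 5'ss array without PDGF-AA replicate 2). Of 19 complement genes 9 lay above 0 (median -0.02), with C7 of the membrane attack complex at -0.49 (SE 0.11), the complement inhibitor gene Cd55 at 0.19 (SE 0.076) and the protease gene C1s1 at -0.17 (SE 0.078). Of 20 p53 target genes 15 lay above 0 (median 0.05). The receptor gene Eda2r was at 0.19 (SE 0.053) without overlap, Pmaip1 and Bbc3, which promote cell death, were at 0.20 (SE 0.094) and -0.13 (SE 0.084), and Sesn1, a stress-responsive gene, was at -0.12 (SE 0.061). For complement and p53 genes leaving out 1 array took Sesn1 to -0.069 (the pA array with PDGF-AA replicate 1), Pmaip1 to 0.12 (the pA array with PDGF-AA replicate 2), C1s1 to -0.092 (the 5'ss array with PDGF-AA replicate 1), and Bbc3 to -0.067 (the 5'ss array with PDGF-AA replicate 2). In a list of prostaglandin E2 and cAMP phosphodiesterase genes chosen after values were seen, 13 of 21 lay below 0 (median -0.02). The prostaglandin E2 receptor gene Ptger3 was at -0.53 (SE 0.097), and the phosphodiesterase genes Pde3b and Pde8a were at -0.44 (SE 0.11) and 0.26 (SE 0.058).

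In the machinery that recognises splice sites and cuts 3' ends 0 genes passed the test. Of 25 genes of U1 and other splicing factors 20 lay below 0 (median -0.04), and 3 had no overlap, against 1.65% of all clusters with pA lower. Snrpd1, a core protein of spliceosomal particles, stood at 8.41, 8.31, 8.51 and 8.45 on pA arrays, against 8.54, 8.57, 8.62 and 8.56 on 5'ss arrays, a change of -0.15 (SE 0.052, adjusted p = 0.531) without overlap. Srsf1, a splicing regulator, was at -0.12 (SE 0.048) and Prpf39, a partner of U1, at -0.13 (SE 0.065). Snrpg was at -0.12 (SE 0.057) in its brightest cluster and at 0.04 (SE 0.098) in its other. Of 22 genes of mRNA 3' end processing 14 lay below 0 (median -0.01), with Cstf2t at -0.16 (SE 0.061), Cstf1 at -0.08 (SE 0.057), Fip1l1 at 0.11 (SE 0.052) and Cpsf7 at 0.09 (SE 0.060). In the 2 lists leaving out 1 array took Snrpg to -0.078 (the pA array with PDGF-AA replicate 2), Prpf39 to -0.079 (the pA array without PDGF-AA replicate 1), Cstf1 to -0.040 (the 5'ss array with PDGF-AA replicate 1), and Cpsf7 to 0.045 (the 5'ss array with PDGF-AA replicate 2). Of 27 genes of the unfolded protein and amino acid stress responses 20 lay below 0 (median -0.05). In 3 the groups did not overlap, all lower with pA AMO, against 1.65% of all clusters. Among these 3 were the chaperone genes Hyou1 at -0.21 (SE 0.051) and Calr at -0.12 (SE 0.051). Chac1, which breaks down glutathione, was at -0.14 (SE 0.055) and Sdf2l1, a partner of chaperones, at -0.12 (SE 0.070), and leaving out 1 array took Sdf2l1 to -0.050 (the pA array with PDGF-AA replicate 2).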

How the data were processed

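Affymetrix Mouse Gene 1.0 ST arrays measured total RNA of cultured FAPs. The deposited values are log2 expression. Per the submitters' processing notes, the authors used RMA and Affymetrix Expression Console, whose versions are not given in the sources used here. RMA corrects background, quantile-normalizes arrays together and summarises the probes of a cluster, so no probe-level check was made here. Symbols came from the platform annotation (1 symbol for 21789 clusters, several for 1621, none listed for 12146), and 21698 were found in RefSeq by gene ID.

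A model of the 4 group means (pA AMO and 5'ss AMO, with and without PDGF-AA) with replicate number as a block was fitted in R 4.3.3 with limma 3.58.1. The averaged comparison used AMO, dose and block as terms (4 residual degrees of freedom), and the single-condition and interaction contrasts the group means (3). The fit was tested on simulated data. The numbers pair the arrays by a check on the data: deviations of same-numbered arrays from group means correlated at 0.197 to 0.599 in 6 of 6 pairs of groups. No label says what the numbers share beyond pooled mice, and with 2 replicates a group p-values measure only the spread between these samples.

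Named genes are the PDGF family, the 12 with the smallest p in each direction, 4 for each single condition and the interaction, and up to 4 members with the largest change in the lists described. Members and lists were chosen with earlier results of these data known, and 8 lists after the values here were seen. A gene with several clusters entered a list by its brightest. Alternatives changed the block, the arrays in the fit, the filter on dim clusters, normalization, centring, moderation, weights, the threshold and single arrays. The number of arrays limits the precision.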

Additional observations from a re-analysis of the deposited data

Results flagged for a closer look

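Among the genes named, an array lay far from the other 3 of its AMO, by the gap to its nearest neighbour relative to the range, in 19 of the groups of 4 arrays tested, both PDGF-AA conditions together. Chance flags about 1 in 20 such groups, and the number of groups tested was 354, so the count is near that rate.

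On pA AMO with PDGF-AA replicate 1, Abcc9 was low at 8.51 and Sfrp4 at 8.34, while Plk1 was high at 8.34, Cxcl9 at 10.19 and Mvd at 8.65. The nearest other pA array stood at 8.92 for Abcc9, 9.25 for Sfrp4, 7.95 for Plk1, 8.67 for Cxcl9 and 8.32 for Mvd. On pA AMO without PDGF-AA replicate 1, Pfkp was low at 10.07. On 5'ss AMO with PDGF-AA replicate 1, Prc1 was low at 7.01, Hmmr at 7.12 and Pdgfrl at 8.53, and Plat was high at 9.10. On 5'ss AMO with PDGF-AA replicate 2, Gfra2 was high at 8.80 and Adm at 11.96, and Fgf18 was low at 9.07. On 5'ss AMO without PDGF-AA replicate 1, Pla1a was low at 8.33, Zbp1 at 9.23 and Tek at 8.51. On 5'ss AMO without PDGF-AA replicate 2, Pdgfc was high at 7.12 and Sfrp4 at 9.65, and Robo4 was low at 5.17.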

How the results depend on the processing

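Beside the 1 cluster called for the averaged comparison, all 12 arrays with the replicate block gave 6 (Kng2, Has2, Tgfbi, Comp, Cxcl13 and Gfra1), the filter on dim clusters 4 (also Has2, Tgfbi and Bclaf1), median centring and array weights 4 each (also Rgs2, Has2 and Cxcl13) and an intensity trend 18, 5 higher and 13 lower, Kng2 among those called in each. With no replicate block 0 clusters passed, with 8 arrays or with all 12, and Kng2 kept its change of 1.17 with adjusted p of 0.258 and 0.266. Over all 35556 clusters its adjusted p was 0.0496. With PDGF-AA, in place of 0 calls, all 12 arrays gave 3, the filter 1 and the trend 50, and without PDGF-AA, in place of 0, all 12 arrays, the filter, the trend and the weights gave 1 each, Kng2. Leaving out each of the 8 arrays in turn gave 1 call throughout for the averaged comparison, with Kng2 between 1.14 and 1.23 (adjusted p 0.00382 to 0.0402), and 0 throughout without PDGF-AA. It gave 0 to 13 with PDGF-AA and 0 to 7 for the interaction, where the highest counts came without the 5'ss array with PDGF-AA replicate 2. The cause was not tested. Among 177 named clusters, leaving out 1 array moved the averaged change by over 1.5 times in 98 and turned its sign in 8. Of the 24 with the smallest p it moved 0 that far. These 24 were ranked by p on the same arrays, so that this count describes the choice. Hsd3b6 ran from -0.031, without the 5'ss array with PDGF-AA replicate 1, to 0.90. Pdgfd ran from -0.021 to 0.12 and was below 0 without the pA array (-0.021) or the 5'ss array (-0.013) with PDGF-AA replicate 1. Without the 5'ss array with PDGF-AA replicate 1, the lowest value was -0.085 for Tnc, -0.028 for Ccn2 and -0.069 for Col5a2, with highest values of 0.50, 0.43 and 0.19 over the arrays left out. Acta1 ran from -0.050 (without the 5'ss array without PDGF-AA replicate 1) to 0.44, Acta2 from -0.64 to 0.025 (without the 5'ss array with PDGF-AA replicate 2) and Ngfr from -0.12 to 0.034 (without the pA array with PDGF-AA replicate 1). With replicate 1 arrays only, a view added after seeing the data, the interferon median was 0.75, and with replicate 2 arrays only 0.05.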
